A study of Mus musculus with 17 samples.

Results

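Mediator is a large complex that carries signals from transcription factors bound to DNA to RNA polymerase II at promoters. Its head, middle and tail parts are held together by the backbone subunit MED14, and the tail meets most activators. A separable kinase module, made of MED12, MED13, cyclin C and CDK8 or its paralogue CDK19, binds the core reversibly and can phosphorylate transcription factors. In embryonic stem cells Mediator is also known for its place at the enhancers of pluripotency genes.

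The genes described were all rows of the count table whose symbol is Med with a number (and at most 1 letter), plus Ccnc, Cdk19 and Cdk8. This gave 33 of 25899 symbols. Cdk8, whose locus held unusually many counts, and Med24, with an outlying library, are given apart, and the counts of genes below cover the other 31. Med20 had 1 count in all libraries and was not tested, so 30 of the 31 were tested.

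New RNA, labelled for 15 min with 5 mM ethynyl uridine and captured by click chemistry, was sequenced from 17 libraries. The cells were E14tg2a, a mouse embryonic stem cell line on a 129SV background. In every library both endogenous genes Erk1 and Erk2 were knocked out and a FLAG-ERK2 Q103A cDNA supplied the ERK function, so no comparison here tests the knockout. A stably expressed cRAF-ErT2 fusion let 4-hydroxytamoxifen (4OHT) switch on RAF and, through it, ERK. All groups had been changed for 24 h from medium with Chir99021 to serum and LIF with 250 nM PD173074, an inhibitor of FGF receptors. The groups were 4OHT at 250 nM for 2 h (n = 3) and cells labelled DMSO, without 4OHT, MEK inhibitor or PP1 (n = 2). Further groups were 4OHT with a MEK inhibitor at 1 µM (MEKi+4OHT, n = 3) and that inhibitor alone (MEKi, n = 3). The others were 4OHT with PP1 at 2 µM, which blocks the ERK2 mutant (PP1+4OHT, n = 3), and PP1 alone (n = 3). The time for which an inhibitor was given alone is not clear from the labels. Replicates were cell clones a, b and c of 1 line, with clones b and c for DMSO, so p-values measure the spread between these clones only. In bulk RNA, fewer cells making a transcript and less of it made per cell cannot be told apart.

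Library totals were 5239690 to 11093390 counts. A set of 14 loci with very high counts, Cdk8 among them, took 9.378% to 42.03% of a library, and the largest shares were in PP1 a, MEKi b and 4OHT b. The summed level of 10 embryonic stem cell markers, all 10 present in the table, was 3253 to 3696 CPM in 4OHT libraries. In DMSO libraries it was 4095 to 4457 CPM (counts relative to the scaled library total). Over the 17 libraries 8 fibroblast markers summed to 1.992 to 8.075 CPM, with Lum at 0 in both the 4OHT and the DMSO libraries. Primitive endoderm markers summed to 9.258 to 14.6 CPM in 4OHT libraries and 17.11 to 17.5 CPM in DMSO libraries. Trophoblast markers summed to 27.31 to 30.16 CPM with 4OHT and 29.12 to 30.93 CPM with DMSO. These sums and the levels below are CPM after TMM scaling, a scaling in edgeR that assumes most genes are unchanged. A count of 3, the limit that a count of 0 allows, corresponds to 0.247 to 0.766 CPM (counting error only).

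The first comparison asked what switching on the RAF-ERK pathway for 2 h does to new Mediator RNA. With 4OHT, 14 of the 30 tested genes rose and 4 fell relative to DMSO (edgeR quasi-likelihood test, Benjamini-Hochberg adjusted p under 0.05). The response to 4OHT reached much of the transcriptome, and 52% of the 14907 genes tested were called, 25.7% higher and 26.3% lower. Mediator genes were called higher in 46.7% and lower in 13.3%. Their median log2 fold change was 0.258, with a range of -0.876 to 1.343, against a median of -0.025 over all genes. The rises were led by Ccnc, Med28, Med22, Med13, Med14 and Med10, and the falls were Med9, Med12l, Med13l and Med21.

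The balance of rises and falls depended on the scaling. Scaled by library totals alone, the median of all genes moved to -0.317, and 5 Mediator genes were higher and 6 lower, with a median of -0.042. With the high-count loci left out as well, the median of all genes was -0.27 and the split was 7 higher to 7 lower. Ccnc, Med28, Med22, Med13 and Med14 stayed among the rises, and Med9 and Med12l among the falls, under all 27 alternatives run. The calls of the other rises were lost under library totals: Med1, Med4, Med6, Med10, Med12, Med15, Med23, Med25 and Med27. Of the 10 stem cell markers 6 were called lower and 1 higher. The fall in their sum, taken under TMM scaling, accompanied the Mediator changes, and its part in them was not tested. Nor was that of the other lineage markers: 2 of 5 tested primitive endoderm markers fell (Sox7, Dab2), and of 5 trophoblast markers 2 rose (Cdx2 by 6.79 ± 0.88, and Krt8) and 1 fell (Tfap2c). Of 8 fibroblast markers 1 was tested, and it was called lower (-1.52).

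**Figure D1:**
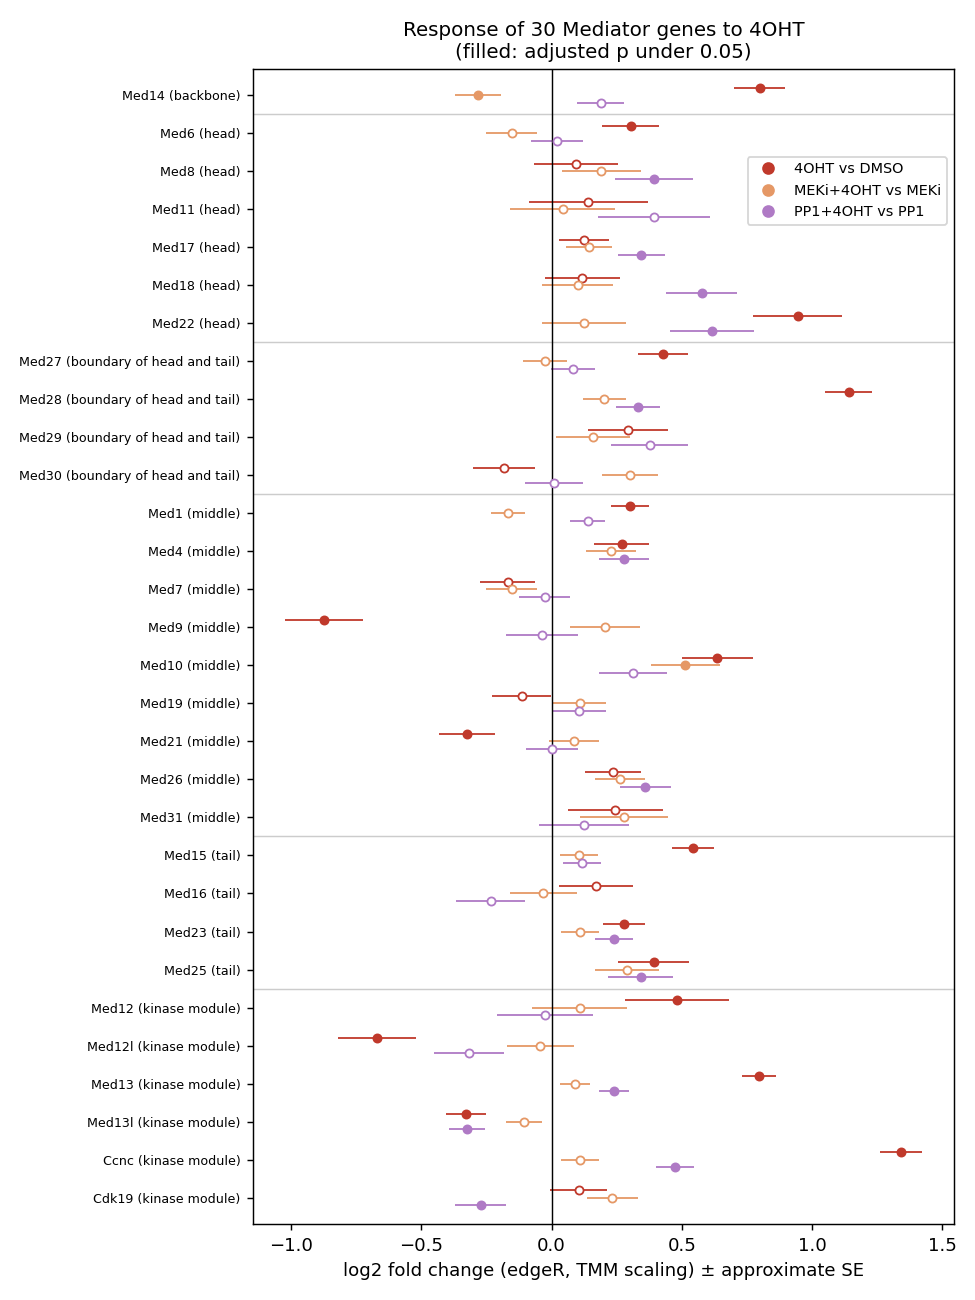
Log2 fold change (x axis, edgeR with TMM scaling, ± approximate SE) of the 30 tested Mediator genes (y axis, by part of the complex) for 4OHT against DMSO, MEKi+4OHT against MEKi and PP1+4OHT against PP1; filled points had an adjusted p under 0.05. The 4OHT points of Ccnc (1.34) and Med28 (1.14) lie farthest to the right and that of Med9 (-0.88) farthest to the left, while the MEKi+4OHT points lie between -0.28 and 0.51.

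Promoters of the 2 genes that rose most, of the backbone gene and of the gene that fell most are shown because the members moved in opposite directions. Each is 300 bases, 250 before and 50 after the annotated start, from RefSeq (GRCm38.p6), which held a promoter for 28 of the 33 genes. Capitals mark matches, on either strand, to the motifs searched: CCGGAAGT and its short form CCGGAA (ETS factors), TGACGTCA (CREB), TGANTCA (AP-1), GCGNGGGCG (EGR), the NRF1 motif and the CArG box of SRF.
Ccnc (chr4:21727451-21727750, plus strand): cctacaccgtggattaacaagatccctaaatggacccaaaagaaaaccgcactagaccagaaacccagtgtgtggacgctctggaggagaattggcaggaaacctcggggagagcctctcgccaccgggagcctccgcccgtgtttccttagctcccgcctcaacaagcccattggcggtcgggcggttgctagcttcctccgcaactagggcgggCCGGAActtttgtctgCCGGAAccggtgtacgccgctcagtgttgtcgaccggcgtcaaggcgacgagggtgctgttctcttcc
Med28 (chr5:45519979-45520278, plus strand): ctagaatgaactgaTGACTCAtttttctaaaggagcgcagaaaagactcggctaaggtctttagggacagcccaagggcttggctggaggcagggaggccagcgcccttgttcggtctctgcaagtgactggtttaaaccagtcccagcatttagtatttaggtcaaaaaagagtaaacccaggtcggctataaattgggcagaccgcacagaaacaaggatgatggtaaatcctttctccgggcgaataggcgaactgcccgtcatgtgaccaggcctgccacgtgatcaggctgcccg
Med14 (chrX:12761924-12762223, minus strand): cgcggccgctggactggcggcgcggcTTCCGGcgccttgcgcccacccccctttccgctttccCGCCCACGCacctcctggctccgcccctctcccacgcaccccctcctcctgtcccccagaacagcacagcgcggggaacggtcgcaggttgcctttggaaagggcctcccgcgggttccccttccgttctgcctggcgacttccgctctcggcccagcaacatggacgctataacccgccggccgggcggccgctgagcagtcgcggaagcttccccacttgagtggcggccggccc
Med9 (chr11:59947964-59948263, plus strand): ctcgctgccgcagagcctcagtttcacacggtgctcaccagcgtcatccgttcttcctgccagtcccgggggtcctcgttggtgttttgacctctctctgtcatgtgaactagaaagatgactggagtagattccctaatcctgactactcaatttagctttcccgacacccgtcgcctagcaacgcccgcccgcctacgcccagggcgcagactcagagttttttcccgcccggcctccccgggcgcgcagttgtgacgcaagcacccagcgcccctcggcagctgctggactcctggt

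Ccnc held CCGGAA at 2 places, Med14 held it once on the opposite strand (TTCCGG) beside an EGR match, Med28 held an AP-1 match, and Med9 held none of the motifs. Over the members, CCGGAA was in promoters of 14 of 28 genes (50.0%), against 14.9% of all 32851 promoters of this length. Its holders included genes that rose with 4OHT (Ccnc, Med4, Med6, Med10, Med12, Med14, Med15) and genes that were not called (Med7, Med11, Med17, Med18, Med19, Med29). The short form overlaps the longer CCGGAAGT and was searched after the sequences had been seen; the longer form was in 3 of 28 (10.7%), against 3.89% of all. AP-1 letters were in 2 (7.1%, against 7.81% of all) and EGR letters in 2 (7.1%, against 5.55%). The CREB letters were in Med21 alone (3.6%, against 1.79%), and neither the NRF1 motif (0.97% of all) nor the CArG box (1.63% of all) was in any of these windows. Members were counted by gene and the background by single promoter, with genes not tested here included, so these shares are not in like units. A match is a description of letters and does not show that a factor binds.

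Med14, on chromosome X at 12675369 to 12762073 (mm10, GENCODE M21), encodes the backbone. Its level was 99.0, 92.9 and 98.6 CPM in 4OHT clones a, b and c, against 57.8 and 53.5 CPM in DMSO clones b and c. All 4OHT libraries lay above both DMSO libraries. The log2 fold change was 0.80 ± 0.10 (approximate SE; adjusted p = 2.5e-07), a 1.74-fold rise.

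In the head, which binds the polymerase, 2 of 6 tested genes rose and none fell, with a median log2 fold change of 0.133. Med22, on chromosome 2 at 26905262 to 26910677, had 27.8, 35.5 and 34.7 CPM in 4OHT clones a, b and c, against 14.6 and 19.2 CPM in DMSO clones b and c. The groups did not overlap, and the log2 fold change was 0.95 ± 0.17 (adjusted p = 5.7e-05). Med6 rose less, by 0.30 ± 0.11 (adjusted p = 0.023), a call lost under library totals (0.0098, adjusted p = 0.97). Med17, the scaffold of the head, had 63.6, 69.1 and 73.2 CPM with 4OHT, against 59.3 and 66.6 CPM with DMSO. These groups overlapped, and its log2 fold change of 0.12 ± 0.10 was not called (adjusted p = 0.30). Med8, Med11 and Med18 had log2 fold changes of 0.09 to 0.14 and were not called either.

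At the boundary of head and tail 2 of 4 genes rose and none fell. Med28, on chromosome 5 at 45520229 to 45529276, had 129.9, 125 and 127 CPM in 4OHT clones a, b and c, against 54.0 and 61.5 CPM in DMSO clones b and c. Every 4OHT library had more than both DMSO libraries, and the rise was 2.20-fold (log2 1.14 ± 0.09, adjusted p = 2.7e-10). Med27 rose by 0.43 ± 0.10 (adjusted p = 0.00058), a call lost under library totals (0.13, adjusted p = 0.65). Values of 0.29 ± 0.15 for Med29 and -0.18 ± 0.12 for Med30 did not pass the test.

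The middle, which links the head to the kinase module, held changes in both directions: 3 of 9 genes rose, 2 fell and 4 were not called. Med10, on chromosome 13 at 69802395 to 69816104, had 32.3, 44.1 and 38.1 CPM with 4OHT, against 22.4 and 26.4 CPM with DMSO. It lay higher in every 4OHT library (log2 fold change 0.64 ± 0.14, adjusted p = 0.00041). Under library totals this call was lost (0.33, adjusted p = 0.16). Med9, on chromosome 11 at 59948206 to 59962205, had 17.5, 22.8 and 16.9 CPM with 4OHT, against 34.5 and 34.5 CPM with DMSO. This was the largest fall among the members, 1.83-fold (log2 -0.88 ± 0.15, adjusted p = 2.9e-05), again with no overlap.

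Med1, the subunit that binds nuclear receptors, had 274, 239 and 259.6 CPM with 4OHT, against 209 and 208 CPM with DMSO (log2 fold change 0.30 ± 0.07, adjusted p = 0.0014). Its groups were apart, although the rise was small and its call was lost under library totals (0.011, adjusted p = 0.97). Med26, which in human cells recruits elongation factors, had 121, 108 and 122 CPM with 4OHT, against 94.2 and 105 CPM with DMSO. Here too the 4OHT libraries were the higher ones, but the log2 fold change of 0.24 ± 0.11 missed the threshold (adjusted p = 0.069).

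Med21, on chromosome 6 at 146642547 to 146650732, had 30.8, 30.2 and 32.1 CPM with 4OHT, against 36.9 and 40.9 CPM with DMSO (log2 fold change -0.33 ± 0.11, adjusted p = 0.013). The call was lost without DMSO clone c (-0.20, adjusted p = 0.24). Exons of Med21 overlap those of Tm7sf3 on the other strand, a gene that fell by 1.59 ± 0.10 on the log2 scale. Because the strand setting of the counting is not known, the 2 genes' reads cannot be told apart and the value of Med21 is uncertain. Med4 rose by 0.27 ± 0.11 (adjusted p = 0.035; -0.030 under library totals), but this call was lost without DMSO clone c (adjusted p = 0.10) or without 4OHT clone b (0.063) or c (0.051). Med7 (-0.17 ± 0.11), Med19 (-0.12 ± 0.11) and Med31 (0.25 ± 0.18) were not called. Med19 overlaps Zdhhc5 on the other strand, which rose (0.44 ± 0.09), so its value is uncertain as well.

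In the tail 3 of 4 genes rose and none fell. Med15, bound by SREBP and Smad proteins, had 169, 159 and 162 CPM with 4OHT, against 118 and 106 CPM with DMSO. The groups were well apart (log2 fold change 0.54 ± 0.08, adjusted p = 4.5e-06). Under library totals this call was lost (0.25, adjusted p = 0.31). Med23, through which the ERK-responsive factor ELK1 acts, had 117, 118 and 113 CPM with 4OHT, against 94.4 and 97.2 CPM with DMSO. It rose by 0.28 ± 0.08 (adjusted p = 0.0064), a direction that turned under library totals (-0.021). Med25 rose by 0.39 ± 0.14 (adjusted p = 0.020), a call lost without DMSO clone b (adjusted p = 0.20) or without 4OHT clone b (0.096) or c (0.069). Med16 was not called (0.17 ± 0.14).

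In the kinase module 3 of 6 genes rose and 2 fell. Ccnc, on chromosome 4 at 21727701 to 21759922, encodes cyclin C, the partner of CDK8 and CDK19, and changed most among the members. Its level was 169.6, 163 and 155 CPM in 4OHT clones a, b and c, against 67.4 and 60.8 CPM in DMSO clones b and c. The groups were far apart, with means of 163 ± 7.12 CPM (SD, n = 3) and 64.1 ± 4.62 CPM (SD, n = 2). The rise was 2.54-fold (log2 1.34 ± 0.08, adjusted p = 2.1e-12). Ccnc shares exon sequence with Tstd3 on the other strand, so reads of these 2 genes cannot be told apart either. Ccnc had 1708, 946 and 1326 counts in 4OHT clones a, b and c, and 819 and 657 in DMSO clones b and c. Tstd3 itself had a mean count of 47.9 per library and was not called (-0.37 ± 0.24, adjusted p = 0.21).

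Med13, on chromosome 11 at 86267033 to 86357602, encodes the subunit that tethers the kinase module to the core. Its level was 338, 327 and 345 CPM with 4OHT, against 193 and 194 CPM with DMSO. The 3 clones lay within a narrow range well above the controls (log2 fold change 0.80 ± 0.07, adjusted p = 4.6e-10). Its paralogue Med13l, on chromosome 5 at 118560679 to 118765438, had 385, 375 and 349 CPM with 4OHT, against 495 and 434 CPM with DMSO. Med13l was lower in every 4OHT library (-0.33 ± 0.08, adjusted p = 0.00094), a call lost without DMSO clone b (-0.20, adjusted p = 0.067). The one gene whose exons overlap those of Med13l, Gm43785, had a count of 0.

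Med12, on chromosome X at 101274030 to 101297465, encodes the subunit that activates the kinase. It had 14.7, 26.7 and 20.0 CPM with 4OHT, against 16.3 and 12.4 CPM with DMSO. The groups overlapped, since 4OHT clone a lay below DMSO clone b. Its rise of 0.48 ± 0.20 was close to the threshold (adjusted p = 0.046) and was lost without DMSO clone c (0.35, adjusted p = 0.28), 4OHT clone b (0.27, adjusted p = 0.26) or 4OHT clone c (adjusted p = 0.071). Its paralogue Med12l, on chromosome 3 at 59005825 to 59318682, had 13.6, 12.4 and 18.5 CPM with 4OHT, against 23.9 and 23.7 CPM with DMSO. Med12l was lower in all 4OHT libraries (-0.67 ± 0.15, adjusted p = 0.00054). The overlapping antisense gene Igsf10 fell too (-1.12 ± 0.21, adjusted p = 7.8e-05), so the value of Med12l is uncertain.

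Cdk19, on chromosome 10 at 40339564 to 40483818, encodes one of the 2 alternative kinases. It had 235, 196 and 227 CPM with 4OHT, against 205 and 203 CPM with DMSO. The DMSO libraries lay within the range of the 4OHT libraries, and the log2 fold change was 0.10 ± 0.11 (adjusted p = 0.45).

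**Figure D2:**
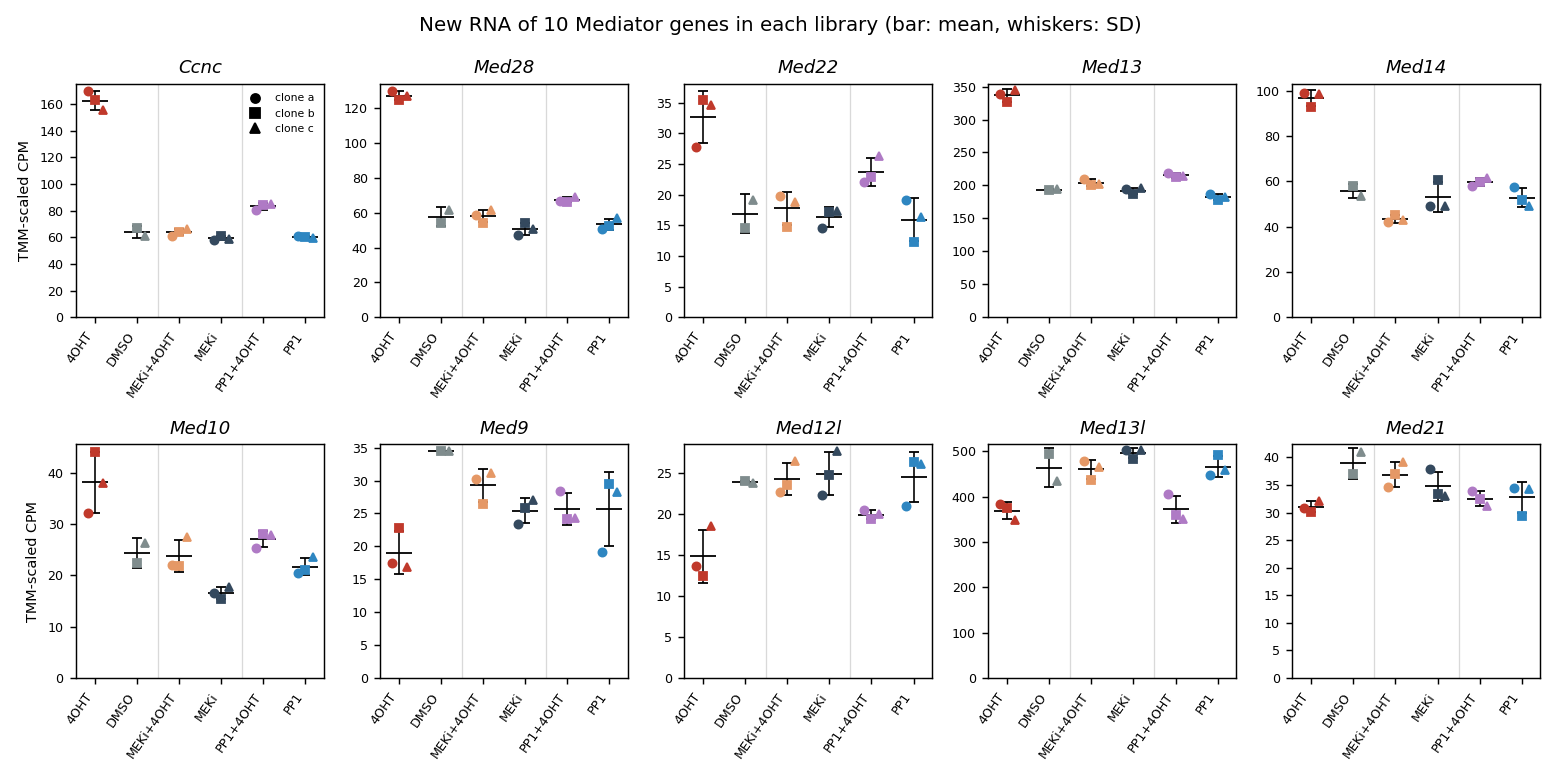
TMM-scaled CPM (y axis, from 0) of the 6 largest rises and the 4 falls with 4OHT in each library (points, shape by clone) of the 6 groups (x axis), with the mean and SD. Ccnc and Med28 are above 120 CPM in all 4OHT libraries and below 90 CPM in all others. Med9 is below 25 CPM in all 4OHT libraries, against 34.5 CPM in both DMSO libraries. It is also below 25 CPM in MEKi a (23.3), PP1 a (19.1), PP1+4OHT b (24.1) and PP1+4OHT c (24.4).

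The ratio of Med13 to Med13l counts within a library needs no scaling. It shows unequal change of the paralogues, not the direction of either, and it was formed with their calls known, so it is a description. It is a ratio of counts, not of levels per length. Med13 to Med13l was 0.880, 0.871 and 0.990 in 4OHT clones a, b and c, against 0.391 and 0.447 in DMSO clones b and c. The means were 0.914 ± 0.0661 (SD, n = 3) and 0.419 ± 0.0393 (SD, n = 2), a 2.18-fold difference with no overlap. The exact permutation test gave a two-sided p of 0.2, the smallest that 3 against 2 libraries allow (0.25 after Benjamini-Hochberg adjustment over 10 ratio tests).

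With the MEK inhibitor the ratio was 0.438, 0.460 and 0.434 in MEKi+4OHT clones, against 0.386, 0.386 and 0.389 in MEKi clones. The groups were still apart but differed only 1.15-fold. With PP1 it was 0.539, 0.590 and 0.611 in PP1+4OHT clones, against 0.418, 0.363 and 0.397 in PP1 clones, a 1.48-fold difference. Relative to 4OHT alone the ratio was 0.487-fold in MEKi+4OHT and 0.635-fold in PP1+4OHT. For each of these comparisons of 3 against 3 the exact permutation p was 0.1, the smallest the design allows (adjusted 0.1667).

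The ratio of Med12 to Med12l was also higher with 4OHT but varied more. It was 1.080, 2.153 and 1.082 in 4OHT clones, against 0.680 and 0.523 in DMSO clones. Clone b was far above the other 4OHT clones, yet all 3 exceeded both controls (2.28-fold; exact permutation p = 0.2). With inhibitors the groups overlapped: the ratio was 0.745, 0.606 and 0.604 in MEKi+4OHT clones, against 0.627, 0.669 and 0.491 in MEKi clones (exact permutation p = 0.6). In PP1+4OHT clones it was 0.784, 0.804 and 0.907, against 1.037, 0.549 and 0.606 in PP1 clones (exact permutation p = 0.4).

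**Figure D3:**
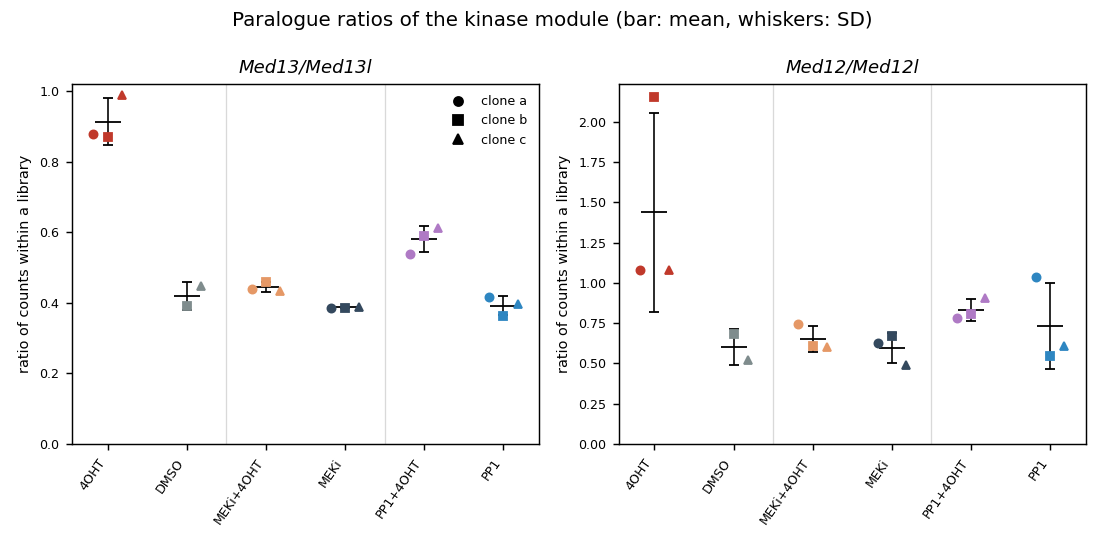
Ratio of Med13 to Med13l counts (left) and of Med12 to Med12l counts (right) within each library (points, shape by clone) of the 6 groups, with the mean and SD; both y axes start at 0. Every Med13 ratio is above 0.8 with 4OHT and below 0.7 in the other groups, while a single 4OHT library (clone b) sets the wide spread of the Med12 ratio.

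The second comparison asked what remained of the response when MEK, the kinase upstream of ERK, was inhibited. In MEKi+4OHT against MEKi only 1 Mediator gene rose (Med10) and 1 fell (Med14). An unadjusted p under 0.05 was found in 9 of the 30, beside 4216 of all 14907 genes. Over all genes tested 14.7% were called, 7.65% higher and 7.03% lower. The members' median log2 fold change was 0.108, against 0.004 over all genes. With the high-count loci left out and library totals as the scaling, 5 rose and none fell. Stem cell markers summed to 3729 to 4150 CPM in MEKi+4OHT libraries and 4275 to 4438 CPM in MEKi libraries. Trophoblast markers summed to 33.15 to 44.7 CPM and 27.51 to 32.41 CPM. Primitive endoderm sums overlapped (19.21 to 26.75 and 21.59 to 24.35 CPM). The part of these markers in the Mediator changes was not tested.

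Med10 had 22.0, 21.9 and 27.4 CPM in MEKi+4OHT clones a, b and c, against 16.5, 15.4 and 17.8 CPM in MEKi clones. The groups did not overlap (log2 fold change 0.51 ± 0.13, adjusted p = 0.0099), but the call was lost without MEKi+4OHT clone c (0.40, adjusted p = 0.072). Med14 had 42.0, 45.2 and 42.7 CPM in MEKi+4OHT clones, against 49.2, 60.5 and 49.1 CPM in MEKi clones. It thus fell where it had risen without the inhibitor (-0.28 ± 0.09, adjusted p = 0.036). The call was lost without MEKi clone b (adjusted p = 0.16), MEKi+4OHT clone a (0.12) or MEKi+4OHT clone c (0.11).

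Ccnc had 61.4, 64.2 and 66.1 CPM in MEKi+4OHT clones, against 58.0, 61.0 and 58.8 CPM in MEKi clones (0.11 ± 0.07, adjusted p = 0.35). Med28 had 58.7, 54.1 and 61.4 CPM, against 46.9, 54.1 and 50.5 CPM in MEKi clones (0.20 ± 0.08, adjusted p = 0.11). Med13 had 209.9, 201 and 202 CPM in MEKi+4OHT clones, against 194, 187 and 195 CPM in MEKi clones (0.09 ± 0.06, adjusted p = 0.33). In Ccnc and Med13 every MEKi+4OHT clone lay above every MEKi clone, by a small margin, while the groups of Med28 overlapped. Med9 had 30.3, 26.4 and 31.2 CPM in MEKi+4OHT clones, against 23.3, 25.8 and 27.1 CPM in MEKi clones, and was not called (0.20 ± 0.13). Of the 14 genes that rose with 4OHT alone, Med10 rose with MEKi too, and none of the 4 falls was called with MEKi. The 14 had a median of 0.108 with MEKi, the same as the 30 tested members.

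The third comparison asked the same with PP1, which acts on ERK2 Q103A itself. In PP1+4OHT against PP1 11 Mediator genes rose and 2 fell, beside 18.4% of all genes higher and 12.8% lower (31.3% called in all). The members' median log2 fold change was 0.163, against 0.001 over all genes. The split was 7 higher and 0 lower under library totals, with the median of all genes at 0.121, 6 higher and 3 lower with only the groups compared, and 7 higher and 1 lower without PP1 clone b. Whether the responses with PP1 and with MEKi differ was not tested. Of the 14 rises with 4OHT alone 7 rose with PP1 too (Ccnc, Med4, Med13, Med22, Med23, Med25, Med28), which is 50.0% of the 14 and 63.6% of the 11. Some of these calls were near the threshold: with PP1, Med25 kept its call in 5, Med4 in 7 and Med23 in 22 of the 27 alternatives. Of the falls, Med13l fell in both. These 2 comparisons share no library. Summed primitive endoderm markers were 9.522 to 13.89 CPM in PP1+4OHT libraries and 18.12 to 21.95 CPM in PP1 libraries. Trophoblast markers summed to 13.89 to 21.37 CPM in PP1+4OHT libraries and 29.4 to 31.35 CPM in PP1 libraries. Their part in the Mediator changes was not tested.

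Ccnc had 80.5, 84.0 and 85.4 CPM in PP1+4OHT clones, against 61.0, 59.9 and 59.3 CPM in PP1 clones. This was clear of the control range in every clone but well short of the level with 4OHT alone (log2 fold change 0.47 ± 0.07, adjusted p = 3.9e-05). Med28 had 66.7, 66.4 and 69.2 CPM, against 50.5, 52.5 and 57.0 CPM in PP1 clones (0.33 ± 0.08, adjusted p = 0.0038). Med13 had 218, 212 and 215 CPM in PP1+4OHT clones, against 187, 178 and 182 CPM in PP1 clones (0.24 ± 0.06, adjusted p = 0.0031). In both genes all PP1+4OHT clones were above all PP1 clones. Med13l had 405, 359 and 352 CPM in PP1+4OHT clones, against 447, 492 and 458 CPM in PP1 clones, a fall about as large as without PP1 (-0.32 ± 0.07, adjusted p = 0.0011).

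In the head 4 of 6 genes rose with PP1 and none fell, 3 of which (Med8, Med17, Med18) were not called with 4OHT alone. Med18 had 28.1, 30.2 and 32.3 CPM in PP1+4OHT clones, against 19.4, 17.3 and 23.9 CPM in PP1 clones (0.58 ± 0.14, adjusted p = 0.0025). Med17 had 66.2, 68.3 and 72.9 CPM, against 53.1, 55.4 and 54.4 CPM in PP1 clones (0.34 ± 0.09, adjusted p = 0.0055). The groups of both genes were apart. Neither gene was called in the test of the difference between the responses with and without PP1. Med22 (0.62 ± 0.16) and Med8 (0.39 ± 0.15) rose as well, but Med22 lost its call without PP1 clone b (adjusted p = 0.071), and Med8 (adjusted p = 0.049) overlapped between the groups and kept its call in 6 of the 27 alternatives. Med26 of the middle rose by 0.36 ± 0.10 (adjusted p = 0.0075).

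Cdk19 was the other fall with PP1. It had 169.7, 161 and 163 CPM in PP1+4OHT clones, against 174, 224 and 196 CPM in PP1 clones. The margin between the nearest clones was small, and the log2 fold change was -0.27 ± 0.10 (adjusted p = 0.038), a call lost when some libraries were left out. In PP1+4OHT against MEKi+4OHT, where it had 253, 223 and 252 CPM, Cdk19 was lower by 0.56 ± 0.10 on the log2 scale (adjusted p = 0.00013), and this call held under all 27 alternatives. No Cdk19 library of PP1+4OHT reached the lowest of MEKi+4OHT.

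The response to 4OHT with an inhibitor was then set against the response without it, in an interaction term. For MEKi 4 genes had a positive and 9 a negative interaction, beside 21.1% and 19.3% of all genes (40.4% called in all). The largest negative values were those of Ccnc (-1.23 ± 0.11, adjusted p = 2.9e-09), Med14 (-1.08 ± 0.13, adjusted p = 5.6e-07), and Med28 (-0.94 ± 0.12, adjusted p = 1.4e-06). None of the 3 was called higher with MEKi, and Med14 fell. Med9 had the largest positive value (1.08 ± 0.20, adjusted p = 0.00014): it fell without MEKi and had 0.20 ± 0.13 with it. Its mean was also lower in MEKi (25.4 CPM) than in DMSO (34.5 CPM), a difference that was not called but enters the interaction. Med10, the gene that rose with and without MEKi, had an interaction of -0.12 ± 0.19 (adjusted p = 0.64). Its rise with MEKi started lower, from a mean of 16.6 CPM in MEKi to 23.8 CPM in MEKi+4OHT. The means were 24.4 CPM in DMSO and 38.2 CPM with 4OHT.

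For PP1 the interaction was called positive in 1 gene and negative in 6, beside 15.1% and 11.4% of all genes (26.5% called in all). Ccnc (-0.87 ± 0.11, adjusted p = 2.0e-06), Med28 (-0.81 ± 0.12, adjusted p = 2.6e-05) and Med14 (-0.61 ± 0.13, adjusted p = 0.0013) led the negative values. Med9 was the positive one (0.84 ± 0.20, adjusted p = 0.0035). Here too its mean was lower in PP1 (25.6 CPM) than in DMSO (34.5 CPM), which was not called but enters the interaction. Ccnc and Med28 kept a called rise with PP1, but a smaller one. Under library totals the split of called interactions turned to 6 positive and 2 negative for MEKi and to 6 positive and none negative for PP1. In those fits the median of all genes was itself at 0.479 for MEKi and 0.452 for PP1, so the signs are relative to TMM scaling.

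Setting the inhibited cells directly against 4OHT alone, 4 genes were higher and 13 lower in MEKi+4OHT, beside 28.4% higher and 28.4% lower of all genes (56.8% called in all). In PP1+4OHT 2 were higher and 10 lower, beside 21.4% and 20.5% of all genes (41.8% called in all). These 2 comparisons share the 4OHT libraries. Ccnc was lower by 1.35 ± 0.07 on the log2 scale in MEKi+4OHT (adjusted p = 8.2e-14) and by 0.97 ± 0.07 in PP1+4OHT (adjusted p = 1.0e-10). Med9 was higher by 0.64 ± 0.14 in MEKi+4OHT (adjusted p = 0.00037) and by 0.45 ± 0.14 in PP1+4OHT (adjusted p = 0.013). The PP1+4OHT call was lost without 4OHT clone a (adjusted p = 0.058) or c (0.076) or PP1+4OHT clone a (0.078). Without 4OHT clone a or PP1+4OHT clone a no Mediator gene was called higher in PP1+4OHT. Under library totals the splits were 8 higher and 5 lower in MEKi+4OHT and 4 higher and 4 lower in PP1+4OHT, with the median of all genes at 0.403 and 0.233.

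The 2 inhibited groups also differed from each other. In PP1+4OHT against MEKi+4OHT 7 Mediator genes were higher and 2 lower, beside 15.2% and 13% of all genes (28.2% called in all). Med18 (0.50 ± 0.13, adjusted p = 0.0058), Med14 (0.46 ± 0.09, adjusted p = 0.00029), Med7 (0.39 ± 0.10, adjusted p = 0.0037) and Ccnc (0.38 ± 0.07, adjusted p = 0.00023) were among those higher with PP1. Besides Cdk19, Med13l was lower (-0.31 ± 0.07, adjusted p = 0.0017). Under library totals the count fell to 1, a lower one, with the median of all genes at -0.143. Of the 9 calls only that of Cdk19 held under all 27 alternatives. The rises of Med8, Med22 and Med28 kept their calls in 8, 10 and 13 of the 27.

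Inhibitors without 4OHT left no Mediator gene called. In MEKi against DMSO the count was 0 of 30 with edgeR and 0 with DESeq2 (0.53% of all genes were called, 0.0805% higher and 0.449% lower). An unadjusted p under 0.05 was found in 7 of the 30, beside 1685 of all 14907 genes. Med10 had the lowest log2 fold change (-0.55 ± 0.14, adjusted p = 0.095). In PP1 against DMSO the count was again 0 of 30 with either tool (0.241% of all genes called, 0.0805% higher and 0.161% lower). Here 6 of the 30 had an unadjusted p under 0.05, beside 1611 of all 14907 genes.

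RNA polymerase II and the general transcription factors work with Mediator at promoters. Of 13 tested subunits of RNA polymerase II 7 rose and none fell with 4OHT against DMSO (median log2 fold change 0.388). Polr2h (1.07 ± 0.13), Polr2f (1.06 ± 0.10), Polr2l (0.93 ± 0.15) and Polr2d (0.56 ± 0.11) had the largest changes. With MEKi 2 of 13 rose and none fell, and with PP1 7 rose and none fell (median 0.288), with Polr2f at 1.08 ± 0.09. Of 18 subunits of the general transcription factors 8 rose and 1 fell with 4OHT (median 0.216). Gtf2f1 of TFIIF (0.73 ± 0.14), Gtf2h1 of TFIIH (0.71 ± 0.08) and Gtf2e2 of TFIIE (0.59 ± 0.07) rose, and Gtf2e1 of TFIIE fell (-0.30 ± 0.10). With MEKi none of the 18 rose and 1 fell (Gtf2a1, -0.31 ± 0.07), and with PP1 8 rose and 1 fell (Gtf2a1, -0.34 ± 0.08). Under library totals the polymerase list was 3 higher and 0 lower with 4OHT, and the general factors were 1 higher and 2 lower (median -0.078).

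Med24, a tail gene on chromosome 11 at 98704591 to 98729435, had a library unlike all others. In MEKi clones a, b and c its counts were 25241, 495 and 2888, and the other groups had 242 to 1120. As CPM this was 53.1, 61.7 and 64.4 in MEKi+4OHT clones, against 3185, 81.0 and 280.2 in MEKi clones. The call in MEKi+4OHT against MEKi (-4.31 ± 1.06, adjusted p = 0.019) was lost without MEKi clone a (-1.62, adjusted p = 0.063). MEKi clone a also had the highest background, 11.24 CPM per Mb, where all other libraries had 1.618 to 8.429. Background here is a low quantile of counts per Mb of gene span. It was taken over genes of at least 150000 bp and scaled by library totals alone. Its part in the Med24 value was not tested. GENCODE places the small nucleolar RNA gene Gm22059 inside Med24, and the part of Gm22059 in the Med24 counts was not tested either. With 4OHT alone Med24 had 57.6, 56.9 and 75.1 CPM, against 48.3 and 69.0 CPM with DMSO, overlapping groups (0.11 ± 1.13, adjusted p = 0.94).

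Cdk8, the kinase of the module, on chromosome 5 at 146231230 to 146302874, had 281000 to 617510 counts per library. Its level was 27905, 98075 and 38043 CPM with 4OHT, against 30620 and 39027 CPM with DMSO. In MEKi+4OHT clones it was 28804, 37138 and 36695 CPM, against 46180, 101001 and 38335 CPM in MEKi clones. In PP1+4OHT clones it was 27902, 34173 and 53843 CPM, against 150620, 42274 and 60891 CPM in PP1 clones. The highest values were those of PP1 a, MEKi b and 4OHT b, which are also the libraries with the largest share of high-count loci. Cdk8 was not called in any of the 10 comparisons (4OHT against DMSO 0.65 ± 0.65, adjusted p = 0.44). Its response could not be measured at this spread.

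**Figure D4:**
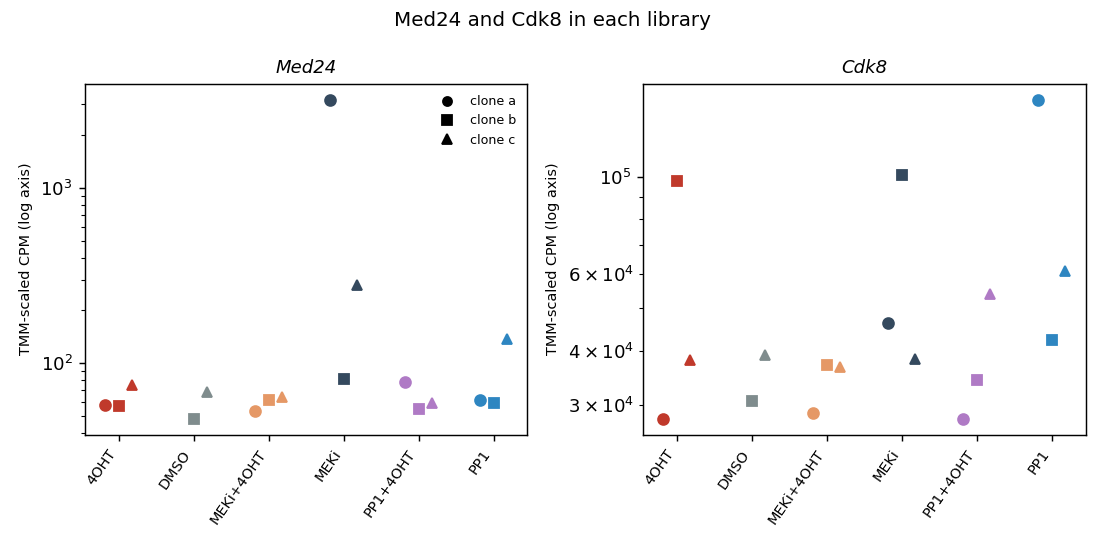
TMM-scaled CPM (log y axes) of Med24 (left) and Cdk8 (right) in each library of the 6 groups (points, shape by clone). Med24 is at 3185 CPM in MEKi clone a and between 48.3 and 280.2 CPM in all other libraries, and Cdk8 is at or above 98075 CPM in 4OHT b, MEKi b and PP1 a.

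Med20, a head gene on chromosome 17 at 47611582 to 47624418, had 1 count in a single library, MEKi+4OHT clone a. Gm20517, whose exons overlap those of Med20 on the same strand, had 34 to 199 counts per library. Reads of the 2 genes cannot be told apart in this annotation, so nothing is said of Med20 expression.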

How the data were processed

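Counts per gene symbol were analysed as deposited, whole numbers without normalization. Per the submitters' processing notes, STAR, featureCounts and mm10 were used; versions, annotation and strand setting are not stated in these sources. All 17 columns were used. Click-iT capture and the NEBNext Ultra 2 kit preceded sequencing, per the labels' protocols.

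One edgeR 4.0.16 quasi-likelihood fit (R 4.3.3) held all libraries, 1 term per group, with TMM scaling and filterByExpr (14907 genes, 11 residual degrees of freedom, biological coefficient of variation 0.0977). The test gave 8 comparisons of 2 groups and 2 interactions, and p-values were adjusted over all genes. The SE is the absolute log2 fold change over the square root of F. Values in every library were given for the 6 largest rises and falls with 4OHT against DMSO (4 fell), the kinase module, 6 role examples, the 4 largest interactions, and Cdk8 and Med24. Members, lists and this rule were chosen with earlier results of these data known. Coordinates came from GENCODE M21 by symbol.

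Clone letters pair the libraries by label. Deviations from group means (log2 CPM, prior count 2) correlated at a mean r of 0.0859 between 40 pairs of libraries of 1 clone and of -0.0425 between 80 pairs of different clones.

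Alternatives were other scalings, the 14 high-count loci left out (mean count of at least 1000, r of at least 0.95 with Cdk8), no filter, DESeq2 1.42.0, a clone block, only the groups compared, and each library left out. Added after seeing the data were fits without the 2 libraries of highest background and without the 3 with the largest share in high-count loci.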

Additional observations from a re-analysis of the deposited data

Results flagged for a closer look

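Each result here had a response to 4OHT that differed with an inhibitor, by the interaction test (log2 units, response with the inhibitor minus response without it, edgeR adjusted p under 0.05). With MEKi the response was lower for 9 genes that rose with 4OHT alone: Ccnc (-1.23), Med14 (-1.08), Med28 (-0.94), Med22 (-0.82), Med13 (-0.71), Med1 (-0.47), Med6 (-0.46), Med27 (-0.45) and Med15 (-0.44). For Med9 (1.08), Med12l (0.63) and Med21 (0.41), which fell with 4OHT alone, the difference was positive, as it was for Med30 (0.48), which was not called in either response. The Med21 call was lost in 10 of the 17 fits that left out 1 library (without DMSO clone c 0.28, adjusted p = 0.22), that of Med30 in 4 and that of Med12l and of Med22 in 1 each. With PP1 the rises of Ccnc (-0.87), Med28 (-0.81), Med14 (-0.61), Med13 (-0.56), Med15 (-0.43) and Med27 (-0.35) were smaller, with the Med27 call lost in 4 such fits, and Med9 (0.84) had the positive difference. Under library totals no negative call with PP1 was kept, and with MEKi only those of Ccnc and Med14 were. The listed signs are thus relative to TMM scaling. The interactions with MEKi and with PP1 share the 4OHT and DMSO libraries. Groups of 2 or 3 libraries were too small for a test of single outlying libraries.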

How the results depend on the processing

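Of 91 called results of single Mediator genes over the 10 comparisons, 28 kept their direction and call under all 27 alternatives, and 26 lost the call when some 1 library was left out. Library totals as the only scaling lost the most calls (51), followed by library totals without the high-count loci (30). Under library totals the number of Mediator genes called was 11 for 4OHT against DMSO, 7 for PP1+4OHT against PP1, 1 for PP1+4OHT against MEKi+4OHT and 8 for the MEKi interaction. With the loci left out too it was 5 for MEKi+4OHT against MEKi. Signs turned under library totals for Med23 (-0.021) and Med4 (-0.030) in 4OHT against DMSO. They also turned for Med23 (0.10), Med7 (0.10), Med6 (0.040) and Med27 (0.091) in MEKi+4OHT against 4OHT, Med6 (0.0069), Med15 (0.023) and Med27 (0.0046) in the MEKi interaction and Med27 (0.069) in the PP1 interaction. With the loci left out too, they turned for Med23 (0.049), Med7 (0.058) and Med27 (0.046) in MEKi+4OHT against 4OHT. The cause was not tested. Leaving out 1 library gave 0 (without MEKi+4OHT c) to 3 genes for MEKi+4OHT against MEKi, 8 (without PP1 b) to 14 for PP1+4OHT against PP1 and 6 to 11 (without 4OHT a) for the PP1 interaction. With clone as a replicate block the paired fit called 19 genes for 4OHT against DMSO, 3 for MEKi+4OHT against MEKi and 15 for PP1+4OHT against PP1. Depth limits the genes of few counts, such as Med11 and Med31.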
